A study of Homo sapiens with 22 samples.

Results

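Estrogen receptor alpha (ESR1) binding without added estrogen was compared between 6 DMSO libraries of D538G clones and 4 DMSO libraries of wild-type clones, 10 of the 22 samples in the series. These are the chromatin immunoprecipitation sequencing (ChIP-seq) libraries whose labels end in DMSO and name a D538G clone or a wild-type clone. All came from Ishikawa cells, an endometrial adenocarcinoma line, in clones whose ESR1 carried a FLAG tag that the precipitating antibody recognized. The D538G group comprised 3 clones whose receptor had D538G, a substitution within its ligand-binding domain, and the wild-type group comprised 2 clones with wild-type ESR1, each clone with 2 replicates. Both groups had spent at least 5 days in medium without phenol red and with stripped serum, and then received the solvent DMSO for 1 h. The 10 libraries given 10 nM estradiol (E2) for the same time (4 wild-type, 6 D538G) are used only as a reference for sites. Each clone is 1 clonal line, so effects of clone and of genotype cannot be told apart fully, and the labels do not say how the 2 replicates of a clone were made. P-values over libraries may therefore measure technical spread as well.

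ESR1 is a nuclear receptor that binds DNA as a dimer, classically at the palindromic estrogen response element, after estradiol binds its ligand-binding domain. Ligand moves the last helix of that domain into the position that recruits coactivators, and D538 lies in the loop before this helix. Substitutions there are known from hormone-treated breast cancers and from endometrial cancers for receptor activity without ligand. In endometrial cells the receptor drives PGR, GREB1 and other genes of the proliferative response.

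No GRCh37 genome was used here, so the bases under the peaks are not shown. Partial matches to the estrogen response element at loci bound in D538G clones are shown instead. The 250 bases before the RefSeq gene start (GRCh38.p14) are given for the 3 such loci with the closest matches. Capitals mark the closest match, on either strand, to the element GGTCA, any 3 bases, TGACC, in which 10 letters are fixed. Each match has 8 of the 10 letters. CTSD (chromosome 11, minus strand) encodes a lysosomal protease, RARA (chromosome 17, plus strand) the retinoic acid receptor alpha, and ALPP (chromosome 2, plus strand) the placental alkaline phosphatase.
CTSD: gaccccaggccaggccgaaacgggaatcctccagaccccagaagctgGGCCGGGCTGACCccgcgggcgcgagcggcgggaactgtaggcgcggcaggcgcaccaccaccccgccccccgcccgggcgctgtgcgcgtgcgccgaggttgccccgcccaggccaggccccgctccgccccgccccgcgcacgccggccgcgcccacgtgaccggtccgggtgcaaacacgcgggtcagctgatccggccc
RARA: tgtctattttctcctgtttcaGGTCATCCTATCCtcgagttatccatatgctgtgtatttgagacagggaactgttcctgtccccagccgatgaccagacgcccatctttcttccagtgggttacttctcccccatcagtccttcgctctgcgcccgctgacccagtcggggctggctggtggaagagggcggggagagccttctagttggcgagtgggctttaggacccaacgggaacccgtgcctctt
ALPP: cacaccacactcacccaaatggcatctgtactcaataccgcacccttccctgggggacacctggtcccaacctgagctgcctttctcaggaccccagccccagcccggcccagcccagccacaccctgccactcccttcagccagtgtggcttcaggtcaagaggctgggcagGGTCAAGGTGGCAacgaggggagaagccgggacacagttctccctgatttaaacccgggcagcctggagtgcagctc
Among 35116 RefSeq promoters of this length, 8.49% held a match of at least 8 letters, 32.6% the half-site GGTCA on either strand, and 0.0399% (14 promoters) the whole element. Of the 17 loci that had a promoter in the table and a D538G peak in at least 5 of 6 libraries, these 3 reached 8 letters and 0 held the whole element. Some loci had several promoters, such as 6 at ESR1, and the closest match over them counted. The 3 of 17 therefore cannot be set against the 8.49%, which counts single promoters. The matches describe letters only, and whether a peak covers these stretches was not determined.

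The lists differ far more in length than the groups do, which bears on every comparison that follows. D538G lists held 12963 and 50382 peaks (clone 1, replicates 1 and 2), 4032 and 54903 (clone 2), and 9850 and 1619 (clone 3). Wild-type lists held 51 and 29118 peaks (clone 1) and 45 and 1080 (clone 2). The wild-type replicate 1 lists of both clones thus stand apart as nearly empty, and wild-type clone 1 replicate 2 stands apart as longer than 4 of the 6 D538G lists. Read depth is not given in the sources used here, so few reads, weak enrichment and few bound sites cannot be told apart in a short list. The mean log10(peak number + 1) was 4.06 ± 0.602 (SD, n = 6) in D538G and 2.72 ± 1.32 (SD, n = 4) in wild type. The difference of 1.34 lay within the library spread (two-sided exact permutation over libraries, p = 0.0571 and, adjusted over 7 tests, 0.1). Without both wild-type replicate 1 lists it was 0.312 (exact permutation p = 0.607). Without wild-type clone 1 replicate 2 it was 1.92 (exact permutation p = 0.0119) and without D538G clone 3 replicate 2 it was 1.51 (exact permutation p = 0.0476), both unadjusted.

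**Figure D1:**
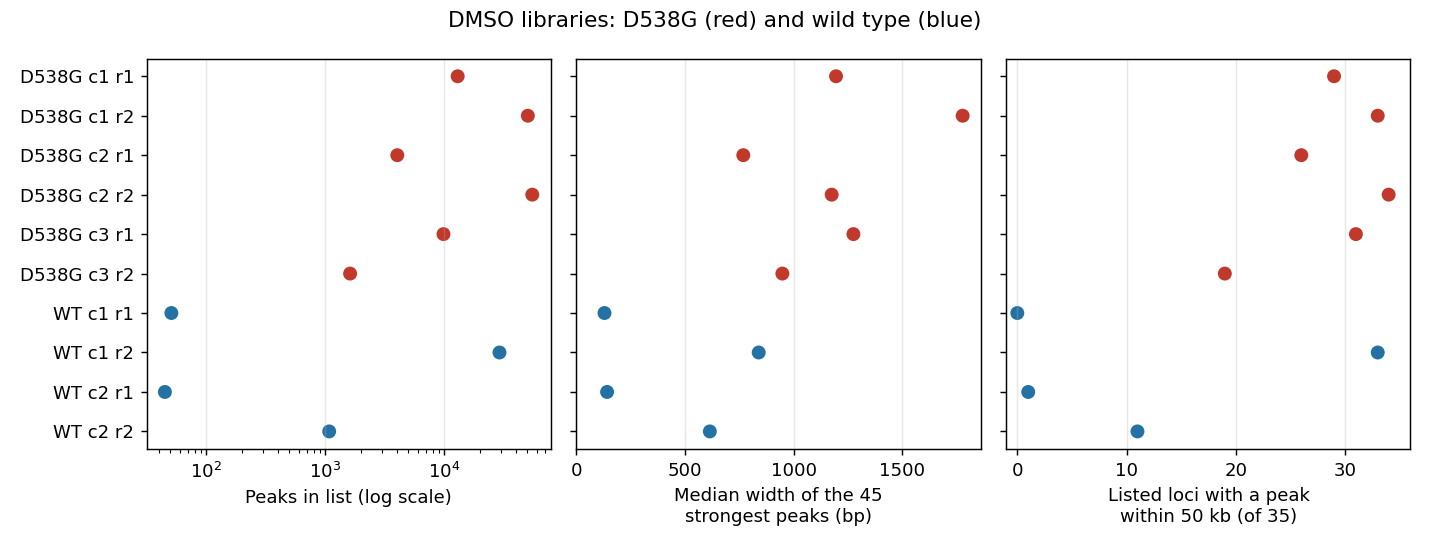
Peaks per list (log scale), median width in bp of the 45 strongest peaks, and listed loci with a peak within 50 kb (of 35), 1 point per DMSO library (c, clone; r, replicate; red, D538G; blue, wild type). The wild-type replicate 1 lists hold 51 and 45 peaks, and wild-type clone 1 replicate 2, with 29118, lies inside the D538G range.

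The strongest sites differed by genotype when every list was held to the same number of peaks. Peaks were ranked within their own list by the authors' signal value, the 45 strongest of each list were taken, 45 being the length of the shortest list (all or nearly all peaks of the wild-type replicate 1 lists), and the overlap coefficient was the number of shared regions over the number in the smaller set. It averaged 0.247 ± 0.153 (SD, n = 21) for pairs of the same genotype and 0.114 ± 0.0790 (SD, n = 24) for pairs of different genotype. The difference of 0.133 exceeded the spread between libraries (exact one-sided permutation test, p = 0.00476, the smallest that the 210 arrangements allow, adjusted p = 0.0333). Leaving out 1 library at a time gave differences of 0.108 to 0.174 with unadjusted exact permutation p-values of 0.00794 to 0.0238. With clones as the units, 3 against 2, the exact permutation p was 0.1, the smallest that design allows, so the call rests on taking libraries as units.

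Agreement inside each genotype was uneven. D538G pairs averaged 0.210 ± 0.138 (SD, n = 15), from 0.0222 between clone 1 replicate 2 and clone 2 replicate 1 to 0.591 between the replicate 1 lists of clones 1 and 3. Wild-type pairs averaged 0.340 ± 0.160 (SD, n = 6), and their highest value, 0.65, joined the 2 nearly empty lists. D538G clone 3 replicate 2 had a coefficient of 0.341 with wild-type clone 1 replicate 1, higher than with any other D538G list. Across the 8 lists of at least 1000 peaks, taken at their 1000 strongest, D538G pairs averaged 0.537 ± 0.109 (SD, n = 15) and pairs across genotypes 0.291 ± 0.134 (SD, n = 12). The only wild-type pair there had 0.316, inside the range across genotypes of 0.109 to 0.510. The same-genotype minus cross-genotype difference on these 8 lists was 0.231 (exact one-sided permutation p = 0.0357, the smallest that 6 against 2 allows, unadjusted).

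**Figure D2:**
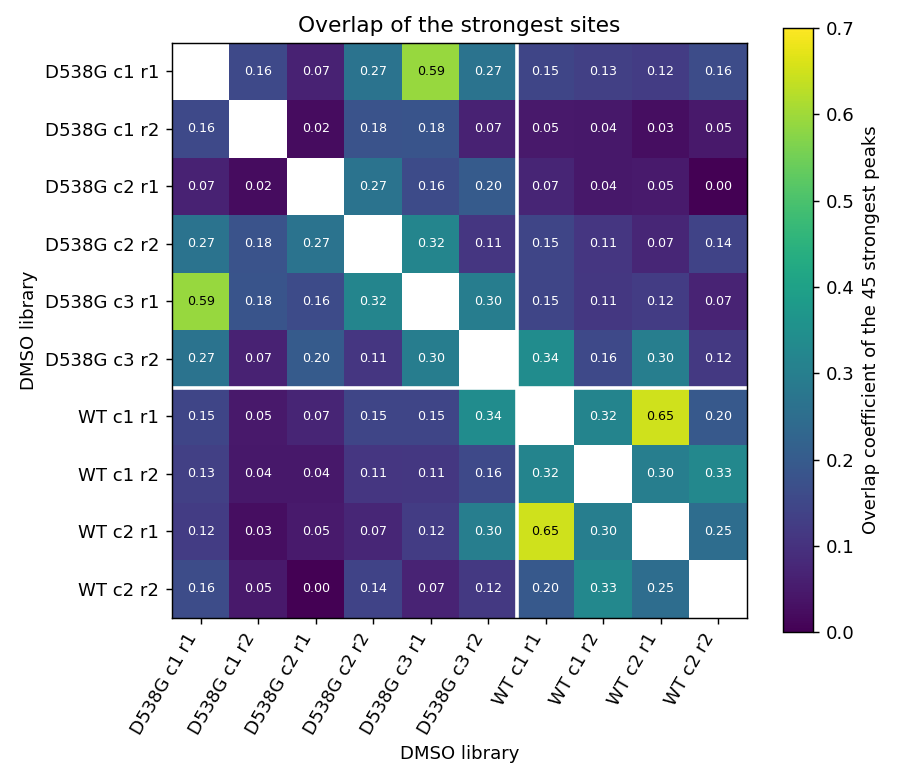
Overlap coefficient of the 45 strongest peaks for each pair of DMSO libraries (c, clone; r, replicate); white lines divide D538G from wild type. Same-genotype pairs average 0.247 and cross-genotype pairs 0.114, and the brightest cells are the 2 wild-type replicate 1 lists (0.65) and the replicate 1 lists of D538G clones 1 and 3 (0.591).

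No region passed after adjustment, an outcome that the number of libraries and the list lengths had nearly fixed. Every region with an unadjusted p under 0.05 was found more often in D538G. The short wild-type lists left almost no room for the reverse. Peaks of all lists were merged into regions where they overlapped, and a library with a peak in a region was taken to bind it. Of 74750 regions with a DMSO peak, 32172 had peaks in 2 or more of these libraries and were tested by Fisher's exact test. With Benjamini-Hochberg adjustment 0 regions passed, and the smallest adjusted p was 0.585. At 32172 tests the smallest Fisher's exact p possible here, 0.00476, passes only if many regions share it. Far more would have to do so than the 869 regions with a peak in all 6 D538G libraries. The 0 therefore does not show that binding was alike. Unadjusted, 1150 regions (3.57% of those tested) passed with a higher share in D538G and 0 (0%) with a higher share in wild type. Regions with a peak in 6 of 6 D538G and 0 of 4 wild-type libraries numbered 262 (0.814% of those tested), each with the smallest p this design can give, 0.00476. The opposite pattern, 0 of 6 against 4 of 4, was found in 0 regions. The direction is bounded by list length, since only 897 regions had a peak in 2 or more wild-type libraries, against 26540 in 2 or more D538G libraries. With 2 wild-type and 0 D538G libraries Fisher's exact p is 0.133, so a higher wild-type share passes only with 3 or more. That takes in at least 1 of the nearly empty lists, and only 45 regions had a peak in 3 or more wild-type libraries. The direction was thus nearly fixed by the lists and is not read as an effect of genotype.

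The count of 262 moved with single libraries. The nearly empty wild-type replicate 1 lists have peaks in 43 and 40 regions, so they could take few regions out of it. Without them it was 264 of 32171 regions tested. Without wild-type clone 1 replicate 2 it was 472 of 26557. Without D538G clone 3 replicate 2 it was 681 of 32113, and without D538G clone 2 replicate 2 it was 483 of 27068. Where a peak had to cover at least 50% of its region and be covered by it to the same extent, 16 of 22106 regions tested had this pattern. Among the 1000 strongest peaks per list, 58 of 1572 had it. Whether these are among the 262 was not counted, since a weaker wild-type peak no longer counts there.

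Most regions of each wild-type list were found in at least 1 D538G list. Of the regions in each wild-type list, 42 of 43, 23444 of 24415 (96.0%), 39 of 40 and 958 of 983 (97.5%) also had a peak in at least 1 D538G DMSO library (clone 1 replicates 1 and 2, then clone 2). For the 3 shorter lists these were sites high in the D538G ranking, with median best percentiles of 95.9, 95.2 and 92.8, a percentile being the share of a list's peaks at or below a peak's signal value. For wild-type clone 1 replicate 2, which holds most of the wild-type regions, the median was 65.4, with 73.0% of its regions in at least 2 D538G libraries and 2.40% in all 6. Regions found in wild type alone numbered 997, and 971 of them came from clone 1 replicate 2. In reverse, 869 regions had a peak in all 6 D538G libraries, 587 of them (67.5%) also in wild-type clone 1 replicate 2 and 397 (45.7%) in at least 1 of the other wild-type lists.

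The regions found in all 6 D538G libraries and in no wild-type library were mid-sized, mostly high in rank and mostly found in wild type with E2. The median width of the 262 regions was 1284.5 bp, and their mean percentile over the D538G lists had a median of 84.9. The 607 regions found in all 6 D538G and at least 1 wild-type library had values of 1838 bp and 85.8, so the regions without a wild-type peak were narrower, at a similar rank within the D538G lists. Among the 262, 97.7% had a peak in at least 1 wild-type E2 library, 80.2% in all 4, and 83.2% in all 6 D538G E2 libraries. Of the 607, 100% had a peak in at least 1 wild-type E2 library and 93.7% in all 4, and of all 26540 regions found in at least 2 D538G libraries 84.3% and 12.9% did. Regions found in 2 to 5 D538G libraries had a median percentile of 57.3, and those in 1 library 34.5. These classes were defined by the peaks themselves, so their ranks are given as descriptions.

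The rule of highest mean percentile among the 262 named 10 regions, all read as GRCh37 (hg19) and each with a Fisher's exact p of 0.00476 (adjusted p = 0.585). The first, chr17:54967647-54969664, lies within 50 kb of TRIM25, an estrogen-responsive ubiquitin ligase, and held percentiles of 97.7 to 99.8 in the 6 D538G lists and 85.6 to 89.2 in the 4 wild-type E2 lists. The second, chr8:22594910-22597584, lies within 50 kb of EGR3, an early growth response transcription factor, with 94.6 to 99.99 in D538G and 89.9 to 96.7 in wild-type E2 lists. Neither had a peak in any wild-type DMSO list. The next 3 were chr5:72612848-72614000, chr7:45453093-45454626 and chr2:42237487-42238711, with mean D538G percentiles of 98.7, 98.6 and 98.5. They were followed by chr3:197318244-197319642 (98.3), chr10:11721084-11722565 (98.0), chr1:230907681-230909653 (97.6) and chr5:55884484-55886048 (97.5).

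Unlike the other 9 of these regions, chr9:138270156-138273124 had a peak in 0 of 4 wild-type E2 libraries. It is 2969 bp wide and had a peak in all 6 D538G libraries with DMSO and all 6 with E2. Its percentiles with DMSO were 99.6, 99.9, 88.1, 99.9, 99.8 and 97.9 (clones 1 to 3, replicates 1 and 2 in turn). It is thus among the strongest sites of 5 D538G lists and lower in clone 2 replicate 1. No annotation of the build was used here, so the genes at regions outside the listed loci are not named.

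The regions with a peak in every library were wide, and their number was bounded by the shortest lists. There were 16 regions with a peak in all 10 lists, of which the median width was 2403.5 bp and the median of the mean D538G percentile 96.4. The wild-type replicate 1 lists have peaks in only 43 and 40 regions (clones 1 and 2), so few sites could be found in all lists. The count therefore does not show how many sites both genotypes bind. Regions join overlapping peaks of many lists, and the part this has in their width was not tested. The D538G peaks in these regions had a median width of 1168 bp. The highest ranked of the 16 regions were chr10:549538-554528, chr1:15302098-15305363, chr2:70842805-70845341, chr19:3386524-3390835 and chr11:69064094-69068196. The strongest of these, on chromosome 10, ranked from 93.9 to 99.9 in the D538G lists and from 95.6 to 100 in the wild-type lists.

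The regions bound in a larger share of wild-type libraries were weak in evidence. The smallest p among them, 0.133, belonged to chrY:10025196-10025264, a 69 bp region found only in the 2 nearly empty wild-type lists. The others named by the rule were chr7:73148958-73149812, chr12:6193334-6194413, chr2:202096870-202097253 and chr12:56211277-56212046. Each of these 4 had a peak in 2 wild-type and 1 D538G library (Fisher's exact p = 0.5).

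In each D538G list strong peaks recurred in other libraries more than weak ones, a difference that did not pass after adjustment. Each D538G list was cut by signal value into 10 parts of equal number, and a peak recurred when its region also had a peak in at least 2 of the other D538G DMSO libraries. In the strongest part 99.9%, 87.6%, 97.0%, 87.2%, 99.9% and 100% of peaks recurred (clones 1 to 3, replicates 1 and 2 in turn), and in the weakest part 86.9%, 8.18%, 84.4%, 14.6%, 88.7% and 65.2%. The difference averaged 37.3 ± 31.3 percentage points (SD, n = 6), was positive in 6 of 6 libraries, and had an exact two-sided sign-flip permutation p of 0.03125, the smallest 6 libraries allow (adjusted p = 0.0889). Each difference was computed from the other D538G lists, the same clone's other replicate included. The 6 values are therefore not independent of one another, which this p does not take into account. With 5 libraries no p below 0.0625 is possible. The size came mainly from the 2 longest lists, clone 1 replicate 2 and clone 2 replicate 2, where 35.1% and 49.7% of regions were found in no other DMSO library. In the other 4 D538G lists between 1.06% and 8.51% were. Strong peaks were also wider than weak ones in each list, and a wider peak can overlap others more readily. In those 2 longest lists the median width was 922 and 609 bp in the strongest part and 232 and 271 bp in the weakest. The part of width in the recurrence was not tested.

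Strong D538G peaks also lay mostly in regions found in wild-type clones with E2. Of the strongest 10% of peaks, between 86.5% and 99.4% fell in regions with a peak in at least 2 wild-type E2 libraries. In the weakest 10% the shares were 78.5%, 21.6%, 84.6%, 27.4%, 86.5% and 67.7%, so the fall was large in the 2 longest lists and smaller in the other 4. The long wild-type DMSO list, clone 1 replicate 2, was compared in the same way. In the replicate 1 lists of clones 1 and 2, the strongest 10% were found there less than the weakest 10%, at 67.2% against 76.3% and 36.1% against 54.3%. In clone 3 replicate 1 the share went from 67.6% in the strongest part to 54.8% in the fourth and 76.2% in the weakest. The replicate 2 lists went the other way, from 69.7% to 23.4%, from 83.9% to 29.9% and from 48.8% to 35.4% (clones 1 to 3).

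The strongest sites of wild-type clone 1 replicate 2 were present in D538G clones, but not as their strongest sites. Of its 1000 strongest peaks, 0 lay outside the D538G regions, 17.1% lay in regions found in all 6 D538G libraries and 32.2% in those found in 4. D538G clone 1 replicate 2 held 100% of them and clone 2 replicate 2 held 93.8%, against 17.9% in clone 3 replicate 2. When both sides were held to their 1000 strongest peaks, the overlap coefficient with each D538G list was only 0.109 to 0.250.

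**Figure D3:**
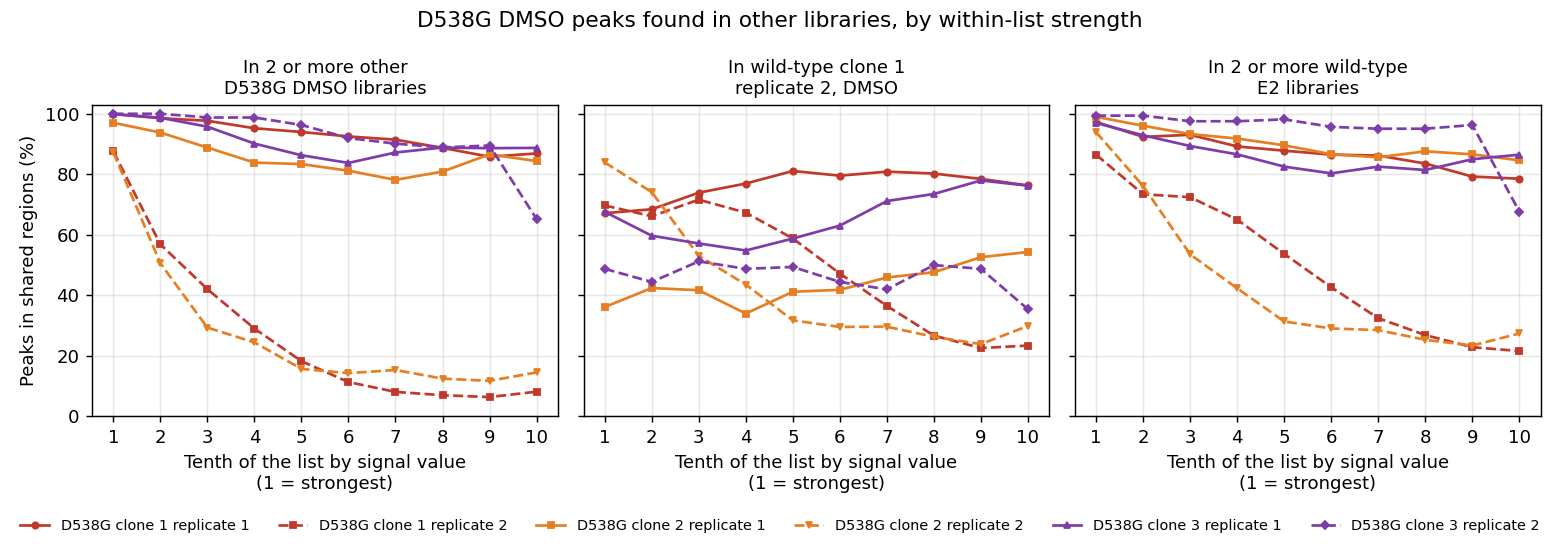
Share (%) of each D538G DMSO list's peaks, in 10 parts by signal value (1, strongest), whose region also has a peak in at least 2 other D538G DMSO libraries, in wild-type clone 1 replicate 2 with DMSO, or in at least 2 wild-type E2 libraries; 1 line per library. The strongest part recurs in 87.2% to 100% of cases, while in the wild-type DMSO list the 3 replicate 1 lines end higher than they start.

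Peak width did not differ between genotypes beyond the spread between libraries over whole lists. The median peak width of a list averaged 360 ± 67.5 bp (SD, n = 6) in D538G and 240 ± 128 bp (SD, n = 4) in wild type, a difference of 120 bp that was within the spread (two-sided exact permutation, p = 0.1, adjusted p = 0.14). Over the 45 strongest peaks the medians were 1195, 1778, 768, 1175, 1275 and 948 bp in D538G (clones 1 to 3, replicates 1 and 2 in turn) and 129, 839, 141 and 614 bp in wild type (clones 1 and 2). The groups overlapped in 1 place, where D538G clone 2 replicate 1 (768 bp) fell below wild-type clone 1 replicate 2 (839 bp). The difference of 759 bp had an unadjusted exact two-sided permutation p of 0.0143, but for the wild-type lists of 45 and 51 peaks it sets all or nearly all peaks against the top of much longer lists. The shortest called peak differed by list as well, at 161 to 262 bp in D538G, 185 and 204 bp in the wild-type replicate 2 lists, and 54 and 53 bp in the wild-type replicate 1 lists. Without both replicate 1 lists the difference in median width over all peaks was 14.8 bp (exact permutation p = 0.786). Over the 1000 strongest peaks of the 8 longer lists it was 227 bp (exact permutation p = 0.286). The part that list length and these floors have in the widths was not tested.

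The clustering of sites did not differ between genotypes beyond the spread between libraries. The share of a list's peaks with another peak of that list within 12.5 kb averaged 50.7 ± 22.4% (SD, n = 6) in D538G and 39.8 ± 20.4% (SD, n = 4) in wild type (difference 10.9 points, two-sided exact permutation, p = 0.438, adjusted p = 0.511). The lowest shares were 27.1% in D538G clone 2 replicate 1 and 22.2% in wild-type clone 2 replicate 1, and the highest were 82.1% in D538G clone 2 replicate 2 and 69.2% in wild-type clone 1 replicate 2, the longest list of each genotype. Without both wild-type replicate 1 lists the difference was -0.167 points. Among the 1000 strongest peaks, 11.4% to 29.9% of D538G peaks were clustered, against 9% and 31.6% in wild-type clones 1 and 2.

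Stitching the 26540 regions found in at least 2 D538G libraries at 12.5 kb gave 11293 single regions and 4428 clusters of at least 2. Clusters held 57.4% of the regions. The 188 clusters of at least 10 regions had a median span of 56.5 kb and held 10.6% of them. The 5 with most regions were chr16:657800-858286 (55 regions), chr19:739665-963721 (50), chr11:762521-911924 (43), chr19:980260-1182342 (37) and chr9:137209219-137355482 (34). Most peaks in these 5 came from the longest lists. In the chromosome 16 cluster D538G clone 1 replicate 2 had 77 peaks and clone 2 replicate 2 had 127, against 45 in wild-type clone 1 replicate 2 and 0 in D538G clone 3 replicate 2. None of these 5 clusters held a region found in all 6 D538G and no wild-type library. Of those 262 regions, 105 stood alone and 157 lay in a cluster of at least 2, a share of 59.9% beside 57.4% for all stitched regions.

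Known estrogen target and partner loci were examined as 35 genes with 50 kb on either side, with GRCh37 positions entered by hand to the nearest 10 kb. They comprised 16 classic estrogen targets, 9 targets described in endometrial cells, 3 uterine growth factor genes and 7 genes of partner transcription factors. The list includes TRIM25, EGR3 and RAMP3, which an earlier account of these data had named, so it supports nothing by itself and its counts are given without a test. D538G libraries had a peak at 29, 33, 26, 34, 31 and 19 loci (clones 1 to 3, replicates 1 and 2 in turn) and wild-type libraries at 0, 33, 1 and 11 (clones 1 and 2). Wild-type clone 1 replicate 2 thus reached as many loci as D538G clone 1 replicate 2. Over all windows of 120 kb in the genome, 4.57% to 46.6% held a peak of a D538G list, against 54.3% to 97.1% of the loci. The wild-type replicate 2 lists likewise held a peak in 35.1% and 2.99% of windows and at 94.3% and 31.4% of the loci. Loci of genes longer than 20 kb are wider than these windows. Of 223 regions tested at the loci, 29 (13.0%) passed Fisher's exact test at 0.05 unadjusted, beside 3.57% of all regions tested. By role the shares were 16 of 76 (21.1%) at endometrial targets, 12 of 99 (12.1%) at classic targets, 1 of 33 (3.03%) at partner factors and 0 of 15 at growth factor genes.

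Among the classic targets, 9 of 16 had a peak in all 6 D538G libraries and 4 of 16 in at least 2 wild-type libraries. GREB1, an early estrogen-induced growth regulator, was bound in all 6 D538G and 3 wild-type libraries. The percentile of its strongest peak was 99.3, 99.4, 97.4, 99.8, 99.5 and 93.1 in D538G (clones 1 to 3, replicates 1 and 2 in turn, an order kept for the loci that follow) and 98.1, 66.7 and 98.0 in wild type. The wild-type replicate 2 lists lay inside the D538G range, and the third wild-type value came from the list of 45 peaks. Of the regions with a peak in all 6 D538G libraries, chr2:11638027-11639709 had one in 3 wild-type libraries and chr2:11679138-11682025 in 2. Both chr2:11628036-11629902 and chr2:11655122-11656498 had one in 6 D538G and 0 wild-type libraries (Fisher's exact test, adjusted p = 0.585), and the former had none in the 4 wild-type E2 libraries either.

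PGR, the progesterone receptor gene, NRIP1, which encodes a corepressor of the receptor, and CA12, a carbonic anhydrase gene, showed a gap in rank. At PGR the strongest D538G peak had percentiles of 97.0, 95.6, 96.3, 97.3, 93.3 and 68.5, and wild-type clone 1 replicate 2, the only wild-type list with a peak there, had 50.3. At NRIP1 the values were 94.1, 93.2, 97.6, 96.5, 96.7 and 77.0, against 59.4 in that wild-type list. At CA12 they were 96.1, 98.1, 95.0, 98.6, 96.8 and 66.0, against 43.6. At each of the 3 loci the lowest D538G value, in clone 3 replicate 2, lay above the wild-type one. Each also held 1 region found in all 6 D538G and no wild-type library: chr11:100904485-100905500 at PGR, chr21:16375485-16376460 at NRIP1 and chr15:63679551-63681124 at CA12. All 3 had a peak in 4 of 4 wild-type E2 libraries.

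RARA, IGFBP4 (an insulin-like growth factor binding protein) and CCND1 (cyclin D1) were bound in all 6 D538G lists and in both wild-type replicate 2 lists. Their median D538G percentiles were 98.4, 97.8 and 97.3. Wild-type clone 1 replicate 2 had 84.1, 98.2 and 92.9 and clone 2 replicate 2 had 37.0, 71.8 and 66.9. None of these 3 separated all D538G lists from wild-type clone 1 replicate 2. SIAH2, a ubiquitin ligase gene, and STC2, which encodes the glycoprotein stanniocalcin 2, were bound in all 6 D538G and 1 wild-type library, with median D538G percentiles of 86.2 and 71.1 against 76.5 and 82.1. TFF1 (a secreted trefoil peptide), CTSD and ESR1 itself were bound in 5 of 6 D538G lists, clone 3 replicate 2 being the exception, and in wild-type clone 1 replicate 2. Their median D538G percentiles were 94.4, 95.5 and 71.9, against 87.9, 58.9 and 42.6 in that wild-type list. PDZK1 and MYC had peaks in 4 D538G libraries, and XBP1 and CXCL12 in 3. CXCL12, a chemokine gene, had none in any wild-type library, with or without E2.

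Among the endometrial targets, 8 of 9 had a peak in all 6 D538G libraries and 5 of 9 in at least 2 wild-type libraries, a count that holds TRIM25 and EGR3 and counts ALPP and ALPG separately. At TRIM25 the strongest D538G peak had percentiles of 99.8, 99.2, 99.1, 99.6, 99.7 and 97.7, against 88.8 in wild-type clone 1 replicate 2. At EGR3 the values were 99.96, 99.99, 97.8, 99.9, 99.99 and 94.6, against 79.7. At ALPP they were 98.2, 98.6, 97.9, 98.8, 96.1 and 98.2, against 64.4 in wild-type clone 1 replicate 2 and 24.8 in clone 2 replicate 2. All 6 D538G lists were above the wild-type lists at each of these. ALPG, the germ cell alkaline phosphatase gene beside ALPP, shares most of its peaks and is not a second observation. The neighbourhood of these 2 genes held 3 regions found in all 6 D538G and no wild-type library, chr2:233192456-233193794, chr2:233195808-233196426 and chr2:233306535-233307807.

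The other endometrial targets did not separate the genotypes in rank. MMP17, a membrane-anchored metalloproteinase gene, had a median D538G percentile of 98.7 against 99.6 and 96.6 in the wild-type replicate 2 lists. CISH, a suppressor of cytokine signalling, had 96.7 against 96.3 and 85.2. TGFA, a ligand of the epidermal growth factor receptor, had 96.4 against 94.5 and 81.5. FHL2, a LIM domain cofactor gene, had 78.2 against 67.7 in wild-type clone 1 replicate 2 and held the region chr2:106020133-106021162, found in all 6 D538G and no wild-type library. RAMP3, an accessory protein of the calcitonin receptor family, was bound in 4 D538G libraries and 1 wild-type library.

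Of the growth factor genes 1 of 3, and of the partner factor genes 1 of 7, had a peak in all 6 D538G libraries. IGF1R, the receptor of insulin-like growth factor, had a peak in all 6 D538G libraries and both wild-type replicate 2 lists, with a median D538G percentile of 98.8 against 99.7 and 97.8. VEGFA, the vascular growth factor, was bound in 5 D538G and 1 wild-type library and WNT4 in 2 and 1. At VEGFA the median D538G percentile was 91.3, against 98.2 in wild-type clone 1 replicate 2. Of the partner factors, ETV4, an ETS family factor, had a peak in all 6 D538G libraries. It was the only one of the 19 loci bound in all 6 where every D538G list fell below wild-type clone 1 replicate 2, with percentiles of 88.8, 99.3, 30.8, 99.0, 78.6 and 40.2 against 99.8. All 6 D538G lists exceeded wild-type clone 1 replicate 2 at 7 of the 19, namely PGR, NRIP1, CA12, ALPP, ALPG, TRIM25 and EGR3. Over all 587 regions found in the 6 D538G lists and in that wild-type list, its median percentile was 86.2. The D538G medians there were 95.9, 98.6, 77.0, 99.2, 95.2 and 59.4, so higher ranks in most D538G lists were not particular to these loci. At how many of the 587 all 6 lists exceeded it was not counted. PAX8, a lineage factor of the reproductive tract, was bound in 5 D538G lists, GATA2 and SOX17 in 4, FOXA1 in 3 and FOXA2 in 0. At PAX8 the median D538G percentile was 87.3, against 92.8 and 3.29 in the replicate 2 lists of wild-type clones 1 and 2.

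**Figure D4:**
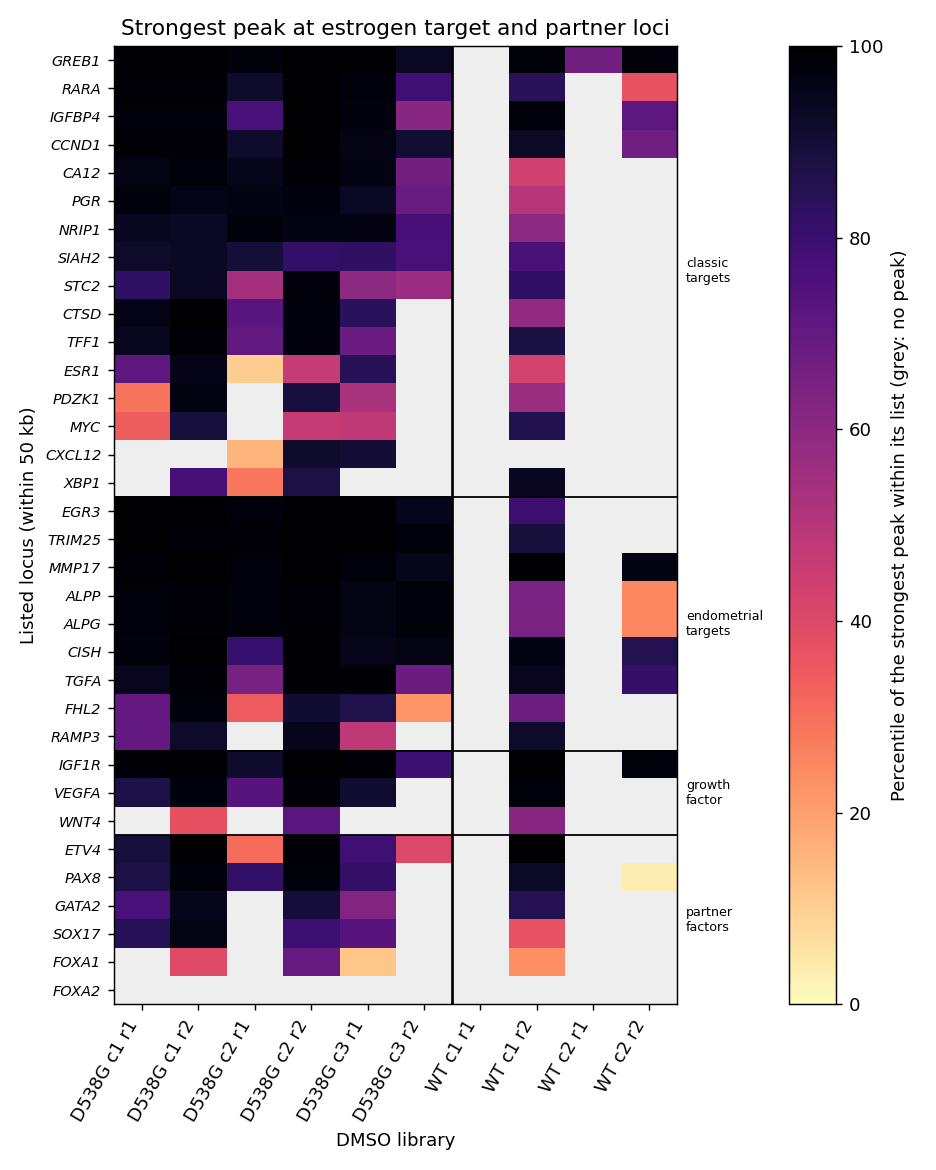
Percentile, within its own list, of the strongest peak within 50 kb of 34 of the 35 loci (rows, grouped by role) in each DMSO library (columns; the vertical line divides D538G from wild type; grey, no peak). Wild-type clone 1 replicate 2 has lower percentiles than all 6 D538G lists at PGR, NRIP1, CA12, ALPP, ALPG, TRIM25 and EGR3.

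Held to the 1000 strongest peaks, the 6 D538G lists reached more of the listed loci than the 2 wild-type lists of that length. The cut takes nearly all of wild-type clone 2 replicate 2 (1080 peaks) but only the top of longer lists, up to 54903 peaks. The part this has in the difference was not tested. Among lists of at least 1000 peaks, the loci with 1 of these peaks numbered 17, 17, 16, 15, 17 and 18 in D538G and 6 and 10 in wild-type clones 1 and 2 (replicate 2). The groups did not overlap, and they differed by 8.67 loci on average. Without TRIM25, EGR3 and RAMP3 the difference was 6.67, but the remaining loci were also chosen with earlier results of these data known. ALPP and ALPG, which share most of their peaks, each count as a locus here. Over all windows of 120 kb the share with such a peak was alike, 2.83% to 3.45% in D538G and 3.35% and 2.78% in wild type. Of the peaks themselves, 2.4% to 3% lay at the loci in D538G and 0.8% and 1.6% in wild type. With every peak of every list the share averaged 1.19 ± 0.604% (SD, n = 6) and 1.12 ± 1.01% (SD, n = 4), a difference smaller than the spread between libraries.

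The loci reached in all 6 D538G lists at this depth numbered 12. GREB1, IGFBP4, MMP17 and IGF1R were also reached in both wild-type lists. RARA, CCND1, CISH, ALPP and ALPG were reached in wild-type clone 2 replicate 2 and not in clone 1 replicate 2. CA12, TRIM25 and EGR3 were reached in neither. PGR and NRIP1 were reached in 4 D538G lists and neither wild-type list. No locus was reached in a wild-type list and in 0 D538G lists.

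**Figure D5:**
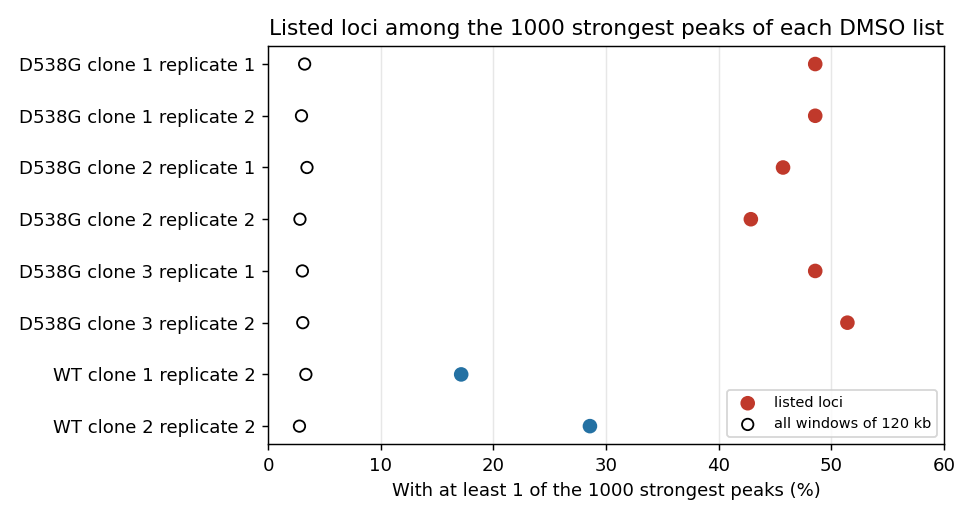
Share (%) of the 35 listed loci (filled; red, D538G; blue, wild type) and of all 120 kb windows (open) with at least 1 of a list's 1000 strongest peaks, for the 8 DMSO lists of at least 1000 peaks. Loci range from 42.9% to 51.4% in D538G and are at 17.1% and 28.6% in wild type, while windows lie between 2.78% and 3.45% in all 8.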

How the data were processed

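Anti-FLAG ChIP-seq of ESR1 was compared between 6 D538G and 4 wild-type DMSO libraries. Each library had 1 narrowPeak list, so peaks were called per library. The submitters' processing notes name Bowtie, MACS2, DESeq2 and the build hg19, with no role or version. The deposited signal value of each peak, whose reference is not given in the sources used here, served for ranking peaks inside their own list and nothing else. The deposited −log10 p lay above 10 in every list, and the deposited −log10 q served for a stricter threshold. The deposited score was left aside. Among the DMSO lists, peak names include the word Input in D538G clone 1 replicate 1 and clone 2 replicate 1 only, and whether the calls used an input alike was not determined. Read depth is not given in the sources used here, and the 2 input libraries were not analysed here. The lists hold positions only, so the cell line could not be checked against markers.

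Peaks of all 20 lists that shared 1 bp or more were joined into 93612 regions with own code, which bedtools 2.31.1 matched in number; 2 mitochondrial peaks were set aside. Coordinates are 1-based. Tests used Python 3.11.15 and scipy 1.17.1 and were tested on simulated data. Benjamini-Hochberg adjustment covered the 7 single-value tests jointly. Of these, 2 concern the listed loci and are given without p-values, because the members, loci and lists were chosen with earlier results of these data known. Regions were named by the highest mean percentile among those with a peak in 6 of 6 D538G and 0 of 4 wild-type libraries (10 regions), or in all 10 (5), by the smallest Fisher's exact p among those with a higher wild-type share (5), and clusters by the number of regions (5). Loci were given values where at least 5 D538G or 2 wild-type libraries had a peak. All 35 locus symbols and chromosomes matched the GRCh38.p14 RefSeq table, and 33 lengths matched it within 20 kb, the exceptions being GREB1 and ESR1. Promoters were found for 24 of the 35 loci. One locus enters the counts and is not reported here by itself. Alternatives were other thresholds, overlaps, distances and ranks, clones as units, a replicate block and leaving out each library.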

Additional observations from a re-analysis of the deposited data

Results flagged for a closer look

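One D538G DMSO list, clone 3 replicate 2, held 2 peaks on the mitochondrial sequence, which the comparisons leave out. The wild-type DMSO lists held 0.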

How the results depend on the processing

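Of 159 alternative values, 116 kept their direction and their side of the threshold or stayed near the reported count. The same-genotype minus cross-genotype difference in overlap of the strongest sites was 0.108 to 0.174 with 1 library left out. It was 0.133 with clones as units, where p can go no lower than 0.1. The difference in peak number was 0.989 to 1.92 with 1 library left out. The labels do not say that a replicate number marks a shared batch, and replicate 2 minus replicate 1 in log10 peak number was 0.590, 1.13 and -0.784 in D538G clones and 2.75 and 1.37 in wild-type clones, so whether the numbers pair libraries was not settled. With the replicate block the peak number difference of 1.34 had an exact permutation p of 0.03. Regions with an unadjusted p under 0.05 then numbered 491 in place of 1150, both of 32172 tested. They numbered 139 of 22106 tested with overlap of at least 50% both ways and 221 of 1572 among the 1000 strongest peaks. Without both wild-type replicate 1 lists they numbered 264 of 32171. With 1 library left out they ran from 923 of 32171 to 2511 of 32113. Regions in all D538G and no wild-type libraries numbered 16 of 22106 and 58 of 1572 under the overlap and 1000-strongest settings. With 1 library left out they numbered 262 to 681, of between 21884 and 32171 tested. The numbers tested differ, so these counts compare only as shares of them. The median width difference was 82.8 to 171 bp with 1 library left out and 759 bp over the 45 strongest peaks. The clustered share difference was -0.167 points without both wild-type replicate 1 lists and 4.63 to 20.7 with 1 library left out. The recurrence difference was 38.0 to 44.8 points with 1 library left out. A peak then had fewer other libraries to recur in, so this measure is stricter than the reported one and not the same.

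Over the listed loci, the difference in loci bound was 17.4 with libraries or clones as units, 16.9 at a −log10 q of at least 20, 16 within 10 kb, 6.67 without both wild-type replicate 1 lists, and 13.7 to 24.7 with 1 library left out. The difference in the share of peaks at the loci was 1.48 points among the 1000 strongest peaks, -0.670 within 100 kb, and -0.0231 without TRIM25, EGR3 and RAMP3. With 1 library left out it was -0.303 to 0.438, being -0.00212 without D538G clone 2 replicate 1, -0.134 without D538G clone 3 replicate 2 and -0.102 without wild-type clone 1 replicate 2. The cause of these shifts was not tested. Alternatives that leave out both wild-type replicate 1 lists, or TRIM25, EGR3 and RAMP3, were chosen after seeing the data.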
